A study of Drosophila melanogaster with 3 samples.

Results

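Isolated su(Hw) sites are binding sites of the insulator protein su(Hw) that have no other site within 20 kb on the same chromosome. They were defined by the deposited dm6 list of 6127 peaks that passed a threshold on the irreproducible discovery rate (IDR, a measure of how well replicates rank the same peaks). Summits no more than 500 bp apart were merged into 1 site, which kept the summit with the highest signal, and a site was kept when its nearest other site lay more than 20000 bp away. This left 559 isolated sites of 5342 sites in all, and the remaining 4783 are called other sites below. The positions of the peaks thus chose the members, so their spacing, number, signal and replicate ranks are given as a description, without a test. The one site on chromosome Y had no other site to measure from and was counted with the other sites.

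The data are chromatin immunoprecipitation sequencing of 3 biological replicates of 1 group: whole embryos of Drosophila melanogaster, 0 to 24 hours old and of both sexes pooled, from the SuHw-GFP line. The animals of this line stably express su(Hw) with a C-terminal fusion to green fluorescent protein from a transgene, whose promoter is not given in the sources used here, and the labels name 1 donor line for all 3 replicates. Chromatin was sonicated to fragments of 200 to 800 bp and precipitated with an antibody against the tag, per the description in the labels, while their antibody field names su(Hw). There was no second condition, so the comparisons are between isolated and other sites. Every unthresholded list, of a replicate or of the pool, has 30000 peaks and is named as peaks and background. The number of reads behind them is unknown, and a whole embryo mixes many cell types and stages, so a weak site and a site bound in few cells cannot be told apart.

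su(Hw) is a zinc finger protein that binds DNA directly and, with mod(mdg4) and Cp190, forms insulator complexes that can block an enhancer from acting on a promoter placed beyond them. It was found through the gypsy retrotransposon, whose insulator is an array of su(Hw) binding sequences. Sequence outside gypsy, such as that between y and ac, can also carry insulator activity in reporter assays, and su(Hw) is further known as a repressor of neuronal genes in the female germline.

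The sequences that the sites turn on are shown first. Each is the summit base and 50 bases either side, from Release 6 (dm6, RefSeq genome sequence), at the summit of one of the strongest isolated sites on 2L, 3L, 3R and X with an exact match to the 12-base su(Hw) consensus, read 5′ to 3′ on the strand on which the consensus lies, with the match in capitals. They come from klar (chr3L:505819-505919, minus strand), CG44837 (chr3L:11918384-11918484, plus strand), the site between upd2 and CG33639 (chrX:18239431-18239531, plus strand), the site past y inside CG32816 (chrX:361568-361668, plus strand), the site between nompC and H15 (chr2L:5365826-5365926, plus strand) and the site between RpS15Aa and Prx2 (chrX:13334935-13335035, minus strand).
klar: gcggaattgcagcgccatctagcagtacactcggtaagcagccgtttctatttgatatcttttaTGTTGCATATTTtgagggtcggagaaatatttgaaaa
CG44837: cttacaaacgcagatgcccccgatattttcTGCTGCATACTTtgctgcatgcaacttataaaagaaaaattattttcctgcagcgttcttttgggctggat
upd2: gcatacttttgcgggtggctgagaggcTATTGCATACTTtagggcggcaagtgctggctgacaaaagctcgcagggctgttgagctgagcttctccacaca
CG32816: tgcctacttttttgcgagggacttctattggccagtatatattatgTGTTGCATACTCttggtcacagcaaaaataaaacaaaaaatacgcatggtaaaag
nompC: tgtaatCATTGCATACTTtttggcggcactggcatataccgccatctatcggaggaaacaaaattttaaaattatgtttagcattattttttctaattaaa
RpS15Aa: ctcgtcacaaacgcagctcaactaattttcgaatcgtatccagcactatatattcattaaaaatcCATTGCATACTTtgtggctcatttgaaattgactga

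All 6 share the core TGCATA, which the consensus contains, and differ around it. The centre of the match lay between 1.5 bp (CG32816) and 38.5 bp (nompC) from the summit. Over the 78 isolated sites with an exact match, the 20 bases before it, read on its strand, were 63.6% A or T and the 20 bases after it 55.4%. At the 344 other sites with an exact match these shares were 62.9% and 52.6%.

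Not every strong isolated site carries the consensus. The next sequences, on the plus strand, are from the strongest isolated sites on 2L, 3L and 3R without a match of up to 1 mismatch within 100 bp. Egfr (rank 62) and CG9380 (rank 69), on an arm whose sequences are not shown, also had no such match. They lie between vn and CG5568 (chr3L:5869816-5869916), between eya and CG31637 (chr2L:6527077-6527177) and between CG7720 and Octalpha2R (chr3R:18798865-18798965).
CG5568: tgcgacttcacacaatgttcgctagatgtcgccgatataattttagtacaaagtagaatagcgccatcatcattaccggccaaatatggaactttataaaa
eya: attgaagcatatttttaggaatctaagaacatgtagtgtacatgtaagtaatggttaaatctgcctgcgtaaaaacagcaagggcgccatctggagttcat
CG7720: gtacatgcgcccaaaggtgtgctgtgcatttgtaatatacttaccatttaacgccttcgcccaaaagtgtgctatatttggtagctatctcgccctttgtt

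The isolated sites were spread over the genome. Chromosome arm 2L held 105 of them, 2R 98, 3L 119, 3R 116 and X 111, which was 9.07% (3R) to 11.9% (X) of the sites of each arm. Chromosome 4, a small and largely heterochromatic chromosome, held 10 isolated sites among its 22 sites (45.5%, exact binomial 95% interval 24.4 to 67.8). It carried 16.3 sites per Mb, while the large arms carried 39.6 to 41.0. The strongest isolated sites of chromosome 4 were in an exon of Cals (signal 5426, rank 115), at the promoter of Actbeta, the gene of an activin ligand (signal 2250, rank 403, exact consensus), and in an intron of mGluR, a glutamate receptor gene (signal 1231, rank 803, exact consensus). These genes were picked after their values were seen.

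The distance from an isolated site to its nearest neighbour ran from 20033 bp to 3879 kb, with a median of 30.5 kb and quartiles of 24.1 and 43.2 kb. It was over 50 kb at 100 sites, over 100 kb at 26 and over 500 kb at 7. Sites just inside the limit were in or next to mew (20033 bp), orb2 (20064 bp), CG13376 (20084 bp), Ance-3 (20133 bp) and RpL7 (20138 bp). Just outside it were CG1764 (19993 bp), kirre (19977 bp), CG14095 (19922 bp), RapGAP1 (19889 bp) and CG2698 (19887 bp). The free span between both flanking sites had a median of 99.6 kb at the 551 sites with a site on each side. A flanking site was itself isolated at 324 isolated sites (58.0%), and both were at 76.

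Isolation here refers to the thresholded list. In the unthresholded pooled list, 517 of the 559 isolated sites (92.5%, 90.0 to 94.5) had a weak peak over 500 bp and up to 20 kb away, with a median of 6 such peaks per site against 11 at other sites. Only 42 isolated sites had none. The label of sites without neighbours therefore refers only to peaks that passed the threshold. The unthresholded list also holds background, so a weak peak need not be a binding site. Whether weakly bound sites lie near isolated ones was not tested. Sites without a weak neighbour were intergenic in 16 of 42 cases (38.1%, 23.6 to 54.4) and had this consensus, 1 mismatch allowed, in 13 (31.0%, 17.6 to 47.1). The other 517 isolated sites were intergenic in 20.1% of cases (16.7 to 23.8) and had the consensus in 33.7% (29.6 to 37.9).

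**Figure D1:**
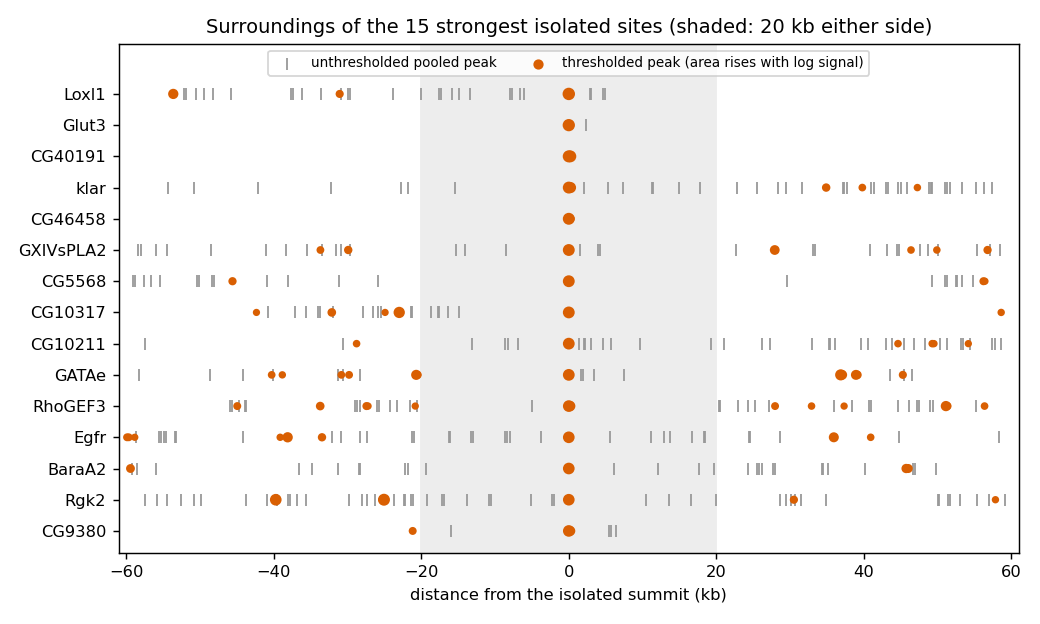
Pooled peaks within 60 kb of the 15 strongest isolated sites, one line per site named by its gene, with distance from the isolated summit in kb on the horizontal axis. Orange points are thresholded peaks, with area rising with the logarithm of the signal, grey ticks are unthresholded peaks and the shaded band is 20 kb either side. No thresholded site other than the isolated one lies in the band, while the number of grey ticks there ranges from 0 (CG40191, CG46458 and CG5568) to 15 (Egfr).

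The isolated sites covered the whole range of peak strength. The signal, a value of the authors' peak caller on a scale that the files do not define, had a median of 416 at isolated and 418 at other sites. Its upper quartile was 906 at isolated and 719 at other sites, and 29.5% of isolated sites were in the strongest of 4 equal classes of all sites by signal against 24.5% of other sites. Isolated sites, 559 of all 5342, made up 10 of the strongest 50 sites (20%, 10.0 to 33.7). They were 22 of the strongest 100 (22%, 14.3 to 31.4) and 80 of the strongest 500 (16%, 12.9 to 19.5). A peak among the 6127 strongest of each of the 3 replicates lay within 200 bp of 395 isolated sites (70.7%) and of 3349 other sites (70.0%). With each replicate's whole list of 30000 peaks, the shares were 97.1% and 97.8%.

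Each replicate's own 6127 strongest peaks gave a like number of isolated sites, 592, 584 and 577 in replicates 1, 2 and 3 (584 ± 7.51, SD, n = 3), but not always at the same places. Of the 559 sites, 256 (45.8%) were also isolated in all 3 replicate lists, 181 in 2, 98 in 1 and 24 in none. A site loses its isolation in a replicate list when it falls below the list's end or when another peak near it rises into the list.

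The strongest isolated site lay between the 3′ ends of Gprk2, which encodes a G protein-coupled receptor kinase, and Loxl1, which encodes a lysyl oxidase. It had a signal of 15793, rank 4 in the pooled list and ranks of 4, 5 and 3 in replicates 1, 2 and 3. Its nearest neighbour was 31.1 kb away. The second lay between the sugar transporter gene Glut3 and the Hox gene abd-A, 8409 bp from abd-A, with a signal of 13506. Its ranks were 6, 8 and 9 in the replicates and its nearest other site was 143 kb away. The third was on 2R between rl, the gene of the MAP kinase of the fly, and CG40191, with ranks of 12, 25 and 19. It carried an exact consensus 1.5 bp from its summit, and its nearest other site was 3879 kb away, the largest distance of all isolated sites.

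Next in strength were the site in a 43328 bp intron of klar, a gene of nuclear and vesicle movement (signal 9414, rank 32), and a site inside both CG46458 and the Hox gene Antp (signal 9225, rank 33). The latter stood 137 kb from its nearest other site and had no weak peak within 20 kb. The site at the promoter of GXIVsPLA2, a secreted phospholipase gene, had rank 38 but was isolated in no replicate list. The one between vn, which encodes an EGF receptor ligand, and CG5568 had rank 40. The receptor gene Egfr itself held an isolated site in an intron of 31587 bp, with rank 62. A site next to ss, a bHLH-PAS transcription factor gene, and nearest to the start of CG10317 had rank 41. The one between the GATA factor genes srp and GATAe had rank 45. The remaining sites of the strongest 15 were assigned to CG10211, RhoGEF3, BaraA2, Rgk2 and CG9380, with ranks of 44, 59, 63, 67 and 69.

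Of these 15 sites, 10 were intergenic and 12 carried the consensus with up to 1 mismatch within 100 bp, 3 of them exactly. All 15 were among the strongest peaks of the 3 replicates, none ranked below 100 in any replicate, and 9 were isolated in all 3 replicate lists. By the ratio of highest to lowest rank, the widest spread among them was at CG40191, with 12, 25 and 19, and at Rgk2, with 100, 81 and 50.

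**Figure D2:**
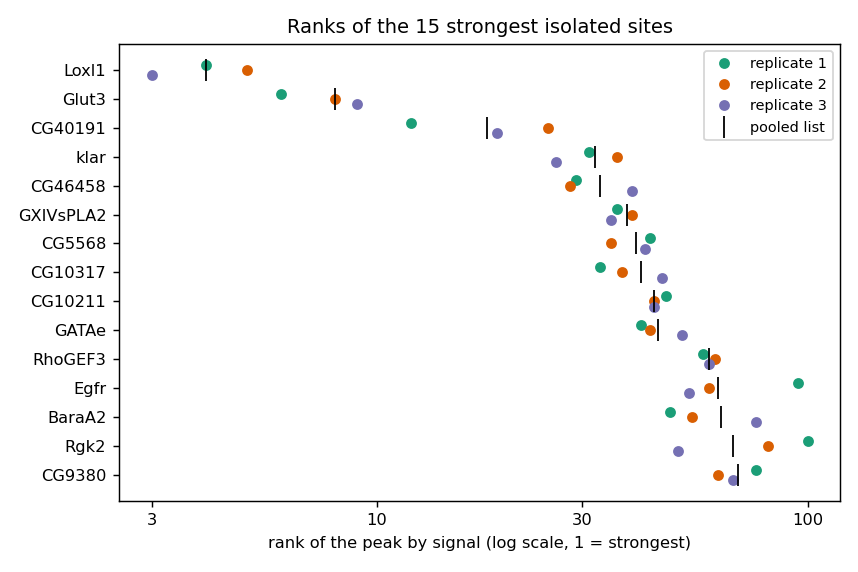
Rank by signal of the 15 strongest isolated sites, one line per site named by its gene, on a log scale where 1 is the strongest peak. Coloured points are the ranks in replicates 1, 2 and 3 and the black tick is the rank in the pooled list. Every replicate rank lies between 3 (Loxl1, replicate 3) and 100 (Rgk2, replicate 1).

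Among all isolated sites, the ranks differed most at Reck, which had a matching peak only in replicate 3, with rank 1657. Replicates 1 and 2 had no peak within 200 bp of it. At Nup133, a nucleoporin gene, the ranks were 2605 and 2115 in replicates 1 and 2, and replicate 3 had no peak within 200 bp. Ptp36E, the gene of a receptor tyrosine phosphatase, had ranks of 2528 and 2456 in replicates 1 and 3. Replicate 2 had no peak within 200 bp of this site, but its own list had an isolated site within 500 bp. The Ptp36E site thus counted as isolated in all 3 replicate lists. Nrt (4392 and 2850) and SKIP (6437 and 3139) also had a peak in replicates 1 and 3 and none within 200 bp in replicate 2. None of these 5 carried the consensus with up to 1 mismatch, which was at 187 of all 559 isolated sites (33.5%). All but SKIP were promoter sites, and 43 of 260 isolated promoter sites carried it (16.5%). No link between replicate ranks and the consensus was tested.

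Location was not itself used by the rule and was compared with that of other sites. Spacing, which the rule used, is not independent of location. Promoters held 51.0% of other sites, and isolated sites had fewer gene starts within 20 kb (median 4 against 7). The part of this in the differences of location was not tested. Each difference of shares below is given with a Newcombe interval at 99.5% confidence, which is 95% adjusted over the 10 differences compared, and passed when the interval left out 0. The intervals cover counting error only, and sites are not replicates, so the same difference was taken in each replicate's own list, with isolation found anew (mean ± SD, n = 3). The replicate lists come from the same libraries as the pooled list.

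Isolated sites lay in intergenic sequence more often than other sites. Of the 559, 120 were intergenic (21.5%), against 599 of the 4783 other sites (12.5%). The difference was 8.94 percentage points (4.27 to 14.4) and passed. In the replicates' own lists it was 10.7, 8.54 and 10.8 points (10.0 ± 1.27). It was positive on all 5 large arms, from 2.58 points on 3L to 16.9 on 3R. Among isolated intergenic sites, 60 of 120 lay between genes that point the same way, 30 between convergent and 29 between divergent genes, and the shares at other sites (47.4%, 29.2% and 23.2%) were within the binomial intervals of these. Among the 3063 strongest thresholded peaks, the difference was 4.35 points (-0.135 to 9.25) and did not pass.

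They also lay farther from gene starts. No start of a protein-coding gene lay within 5 kb of 154 isolated sites (27.5%), against 15.7% of other sites, a difference of 11.8 points (6.61 to 17.6) that passed. The replicates' own lists gave 14.5, 13.4 and 13.1 points (13.7 ± 0.695), and every large arm gave a positive value, from 7.49 to 16.3 points. The median distance to a start was 922 bp at isolated and 583 bp at other sites. Within 20 kb, isolated sites had a median of 4 genes with a start and other sites 7, and 38 isolated sites (6.80%, 4.86 to 9.21) had none.

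Promoters, from 1000 bp upstream to 100 bp downstream of a protein-coding transcript start, were still the most frequent location. They held 260 isolated sites (46.5%) and 51.0% of other sites. The difference of -4.52 points (-10.7 to 1.74) did not pass, and its sign varied between arms, being negative on 3 of 5. The replicates' own lists gave -10.0, -8.66 and -5.29 points, and those of replicates 1 and 2 passed, as did the set without replicate 1 (-6.53 points, -12.3 to -0.627) and a promoter window that reached 2000 bp upstream and 500 bp downstream (-9.46 points). With isolation set at 10 or 50 kb the difference also passed, at -4.41 and -15.9 points.

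Introns held 155 isolated sites (27.7%) and 30.4% of other sites, a difference of -2.71 points (-8.04 to 3.18) that did not pass and had no steady sign across the replicates' own lists (0.83, 2.27 and -3.39 points). A protein-coding gene of over 50 kb held 104 isolated sites (18.6%) against 11.9% of other sites, a difference of 6.69 points (2.29 to 11.9) that passed, with 7.25, 8.50 and 6.07 points in the replicates' own lists. This call was lost among the 3063 strongest peaks (3.52 points), with isolation at 50 kb (5.49 points) and with genes of over 20 kb (3.33 points). The intron that held the summit had a median length of 12165 bp at isolated and 8726 bp at other intronic sites. Coding exons held 4 isolated sites and other exons 20.

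**Figure D3:**
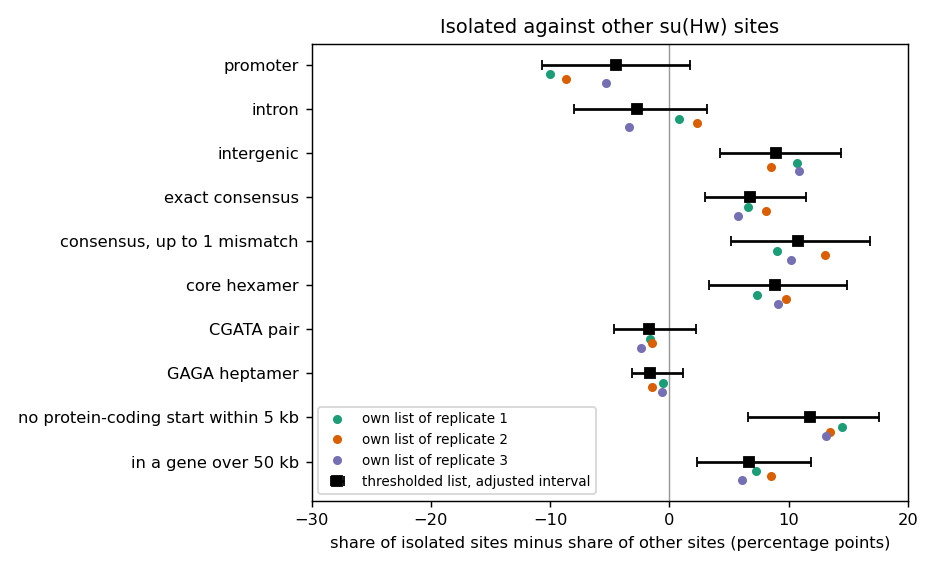
Share of isolated sites minus share of other sites, in percentage points, for the 10 measures compared. Black squares are the thresholded list with its 99.5% interval and coloured points are each replicate's own list, and the intergenic, consensus, core, start distance and long gene measures have intervals to the right of 0.

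The su(Hw) consensus lay near isolated sites more often than near other sites. It was searched on both strands within 100 bp of each summit. An exact match was present at 78 isolated sites (14.0%) and 344 other sites (7.19%), a difference of 6.76 points (2.98 to 11.5) that passed. With up to 1 mismatch it was present at 187 isolated sites (33.5%) and 22.6% of other sites, a difference of 10.8 points (5.20 to 16.8) that passed. In the replicates' own lists these differences were 6.62, 8.05 and 5.78 points for exact matches (6.82 ± 1.15) and 8.99, 13.1 and 10.2 points with 1 mismatch (10.7 ± 2.09). Both were positive on all 5 large arms.

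The same sequences were far less frequent away from the summits. In windows of the same length 2 kb either side of the isolated summits, an exact match was in 0.179% (0.0217 to 0.645) and one with up to 1 mismatch in 4.47% (3.34 to 5.85). Among 20682 weak pooled peaks over 1 kb from any thresholded summit, the shares were 1.74% and 9.28%. The core TGCATA alone was at 32.7% of isolated and 23.9% of other sites, a difference of 8.88 points (3.30 to 14.9) that passed, and in 10.9% of the windows 2 kb away. A match is a description of the sequence and not a measured site. The exact-match call was lost with isolation at 50 kb (5.20 points, -1.67 to 17.4) and among the 3063 strongest peaks (3.73 points, -0.0454 to 8.03).

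Where a match lay, it lay close to the summit. Of the 187 isolated sites with a match of up to 1 mismatch, 154 (82.4%) had its centre within 50 bp, and the median distance was 17.5 bp against 19.5 bp at other sites. A pair or more of such sequences that did not overlap was at 25 isolated sites (4.47%, 2.91 to 6.53) and at 93 other sites (1.94%, 1.57 to 2.38). This count was made after the other values were seen and has no test.

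The consensus was also counted within each location. With 1 mismatch allowed, it was at 78 of 155 isolated intronic sites (50.3%, 42.2 to 58.4), against 30.1% (27.7 to 32.5) of other intronic sites. Exact matches were at 24.5% (18.0 to 32.1) and 9.96% (8.47 to 11.6) of these. At intergenic sites the shares with up to 1 mismatch were 48.3% (39.1 to 57.6) and 42.1% (38.1 to 46.1), and at promoters 16.5% (12.2 to 21.6) and 12.4% (11.1 to 13.7). The intervals of isolated and other sites thus overlapped within promoters and intergenic sequence and did not overlap within introns. These shares within classes are descriptions, and whether they differ between classes was not tested.

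The shares were also taken by peak strength. In each of these 4 signal classes, from the strongest to the weakest, a consensus with up to 1 mismatch lay at 49.7%, 34.5%, 22.8% and 24.1% of isolated sites and at 38.6%, 20.9%, 17.0% and 14.4% of other sites. With the other sites weighted to the signal classes of the isolated sites, the difference was 9.96 points (4.10 to 15.8). Weighted in the same way, the difference was 6.43 points for exact matches, 8.46 for intergenic summits, 11.8 for no start within 5 kb and 6.73 for genes of over 50 kb, and all of these passed. Among the 3063 strongest peaks with isolation found anew, the consensus difference with up to 1 mismatch was 6.19 points (0.648 to 11.9) and passed, while the differences in exact matches (3.73 points), intergenic summits (4.35) and long genes (3.52) did not. Intergenic summits made up 33.9% of isolated and 20.8% of other sites in the strongest class, and 17.2% and 9.74% in the weakest.

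**Figure D4:**
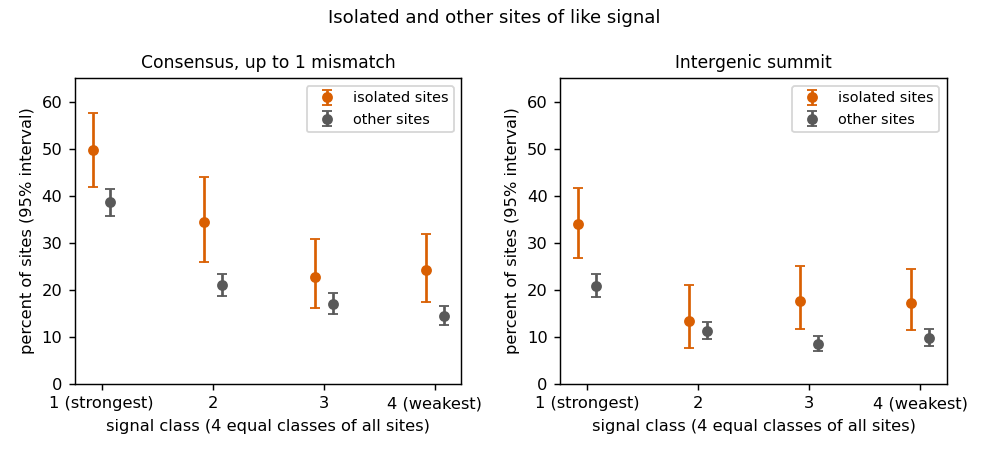
Percent of isolated (orange) and other sites (grey) in each of 4 equal classes of all sites by signal that carry the consensus with up to 1 mismatch (left) or lie in intergenic sequence (right), with exact binomial 95% intervals. In the strongest class 49.7% of isolated and 38.6% of other sites carry the consensus, and the isolated share is the higher one in all 4 classes of both panels.

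Sequences of other proteins were searched in the same windows. Pairs of CGATA within 40 bp of each other on either strand, as the insulator protein BEAF-32 binds them, were at 43 isolated sites (7.69%) and 9.43% of other sites, a difference of -1.74 points (-4.63 to 2.21) that did not pass. A single palindrome that reads CGATA on both strands also counted as a pair. Of the 43, 41 were at promoters, as were 408 of the 451 other sites with a pair. At promoters 15.8% of isolated and 16.7% of other sites had one, and in intergenic sequence 0 of 120 (upper 95% limit 3.03%) and 9 of 599. GAGAGAG, the sequence of the GAGA factor, was at 2.50% of isolated and 4.12% of other sites (-1.61 points, -3.18 to 1.10) and did not pass. In the windows 2 kb away these sequences were in 1.61% and 2.50%. CAGGTAG, the sequence bound by the early embryonic factor Zelda, was at 11 isolated sites (1.97%, 0.986 to 3.49) and 0.836% of other sites, without a test. The sequence CGCCATCT was picked after the printed sequences were seen, since it stands in those of klar, nompC and eya. It was at 20 isolated sites (3.58%, 2.20 to 5.47), 79 other sites (1.65%), 0.754% of weak peaks and 0.626% of the windows 2 kb away. The sites of klar, nompC and eya are among the 20. Of 187 isolated sites with a su(Hw) consensus of up to 1 mismatch, 5 had CGCCATCT (2.67%, 0.874 to 6.13). Of the 372 without one, 15 had it (4.03%, 2.27 to 6.56). These 2 intervals overlap, and the difference was not tested.

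The shares were also taken over the whole range of spacing. For sites with a neighbour up to 1, 1 to 5, 5 to 10, 10 to 20, 20 to 50 and over 50 kb away, a consensus with up to 1 mismatch lay at 15.9%, 20.7%, 23.7%, 28.6%, 31.8% and 41.0%. Over the same bins, 9.06%, 11.0%, 13.6%, 16.1%, 17.9% and 38.0% of sites were intergenic, and 10.5%, 13.1%, 18.0%, 21.6%, 24.0% and 44.0% had no start within 5 kb. The share at promoters was 35.0% (25.7 to 45.2) for sites over 50 kb from a neighbour and 44.9% to 53.5% in the 5 other bins. The median signal was 392 in the first bin and 416 to 424 in the others. These 3 shares were higher in each wider bin, with no step at the limit of 20 kb, and no trend was tested. Exact matches were at 65 of 459 sites with a neighbour 20 to 50 kb away and at 13 of 100 sites beyond.

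**Figure D5:**
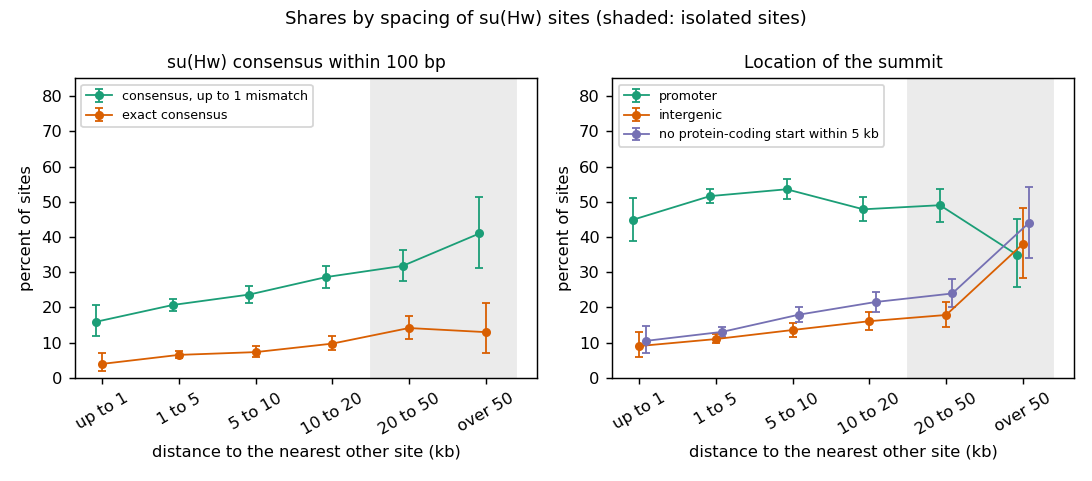
Percent of sites with the su(Hw) consensus (left) and percent at each location (right) by distance to the nearest other site in kb, with exact binomial 95% intervals and isolated sites shaded. The consensus with up to 1 mismatch goes from 15.9% at up to 1 kb to 41.0% over 50 kb, and the intergenic share from 9.06% to 38.0%.

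The 5 sites named for the largest distance had no protein-coding gene start within 20 kb. All lay toward an end of their arm. On 2R (position 1243566) and 3R (2960522) they were the first site of the arm. The 3 on 3L, which is 28110227 bp long, lay at 24464211, 25574408 and 27422662. How well reads could be placed in these stretches is unknown. After CG40191 came a site in an intron of the Piezo-like gene Pzl, at 1254 kb, with ranks of 1220, 1337 and 1607 in the replicates. Sites nearest to the starts of mRpS5 and inside lovit, a vesicular transporter gene, stood 1110 kb from each other. Dbp80, an RNA helicase gene, was nearest to a site at 669 kb. Its neighbour, nearest to l(3)80Fj, has the same distance and an exact consensus (rank 674), so the fifth place is a tie. The first 4 of these carried an exact consensus and Dbp80 one with 1 mismatch, and all 5 were isolated in all 3 replicate lists.

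The sites at mRpS5 and lovit lay inside annotated copies of gypsy, the element whose insulator su(Hw) binds. They had signals of 417 and 453, with ranks of 2806, 3528 and 2854 (mRpS5) and 2908, 1977 and 3363 (lovit) in the replicates. Copies of an element share sequence, and how reads that fit several copies were placed is not given in the sources used here, so the copy that was bound is uncertain. In all, 4 isolated sites (0.716%) and 13 other sites (0.272%) lay in an annotated transposable element. The other members were at CG7458, inside an INE-1 element, and at ccb.

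Among loci known for su(Hw), the site past y is isolated. It lay 373 bp past the end of y, a pigmentation gene, and 8413 bp from ac, a proneural gene, with a signal of 6060 and ranks of 89, 93 and 104 in the replicates. Its nearest other site was 23.3 kb away, and its sequence with an exact consensus is the one printed above as CG32816. No other site lay between it and ac. The sites at su(Hw) itself (rank 5, nearest other site 7975 bp away), Rbp9 and Ubx were not isolated. Abd-B had no site in its body or within 1 kb. The site nearest to Abd-B, 5891 bp away, was not isolated either.

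Among developmental gene lists, an isolated site in the gene body or within 1 kb was present at 2 of 8 Hox genes, Antp and pb (signal 1043, rank 964). It was present at 7 of 40 neural and developmental transcription factor genes (17.5%, 7.34 to 32.8), with srp and eya, a gene of eye and muscle development (rank 86), as the strongest. The homeodomain gene hth held 3 isolated sites, with signals of 536, 403 and 254, and bab1, a gene of leg and ovary patterning, held 1 (rank 2621). Of the 26 genes found of the segmentation list, 1 had one (3.85%, 0.0973 to 19.6). It was at Dll, 127 bp from its start (rank 489). Dll is a limb selector gene, so this share does not rest on a gene named for segmentation. Over all 13968 protein-coding genes, 667 (4.78%, 4.43 to 5.14) had an isolated site.

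Neuronal function genes had one in 8 of 45 cases (17.8%, 8.0 to 32.1), the strongest at the cell recognition gene Dscam1 (rank 1316), the netrin gene NetB (rank 2133), kirre (rank 2257) and the acetylcholine receptor gene nAChRalpha1 (rank 2818). The kirre site lay outside that gene, next to N. Ecdysone genes had one in 2 of 16, at Eip93F, in an intron with an exact consensus (rank 4250), and at the promoter of Eip78C (rank 4517). Of 12 insulator protein genes, 1 had one (8.33%, 0.211 to 38.5): mod(mdg4), which encodes a partner of su(Hw) (rank 1450). That site lay in the body of mod(mdg4) but at a promoter and was assigned to another gene, pre-mod(mdg4)-E. Ribosomal protein genes had one in 8 of 92 (8.70%, 3.83 to 16.4), at RpS15Aa, RpL7, RpL23A and RpS16 among others. The RpS15Aa site, whose sequence is printed above, was isolated in no replicate list. Chemosensory receptor genes had one in 3 of 179 (1.68%, 0.347 to 4.82), at Or92a, Gr64a and Gr89a. Median gene length was 44.5 kb in the neuronal, 30.6 kb in the Hox and 1.69 kb in the chemosensory list, and 2.16 kb over all genes. Of the genes with any site, an isolated one was present at 11.0% in the ribosomal, 21.4% in the chemosensory, 29.6% in the neuronal and 43.8% in the transcription factor list, and at 12.9% over all genes. Against all genes, the value of the ribosomal list was thus higher by the first share and lower by the second, and the chemosensory list the reverse. Both first-share intervals include the 4.78% over all genes. The second shares rest on 8 ribosomal and 3 chemosensory genes with an isolated site, without intervals, so no direction is drawn. The part of gene length in these shares was not tested.

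No gene body held more than 3 isolated sites, and 3 genes held that many: Msp300, a nesprin gene of muscle, hth and tyn, which encodes a zona pellucida domain protein. These genes are 106126, 132008 and 60346 bp long. In Msp300 the sites had ranks of 1172, 1374 and 3041 and all were isolated in all 3 replicate lists. In tyn the strongest had rank 280, with 271, 274 and 298 in the replicates, while the others had ranks of 5959 and 5960 and were isolated in 1 replicate list each.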

How the data were processed

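Peak lists of 3 su(Hw)-eGFP replicates were used as deposited, in dm6. The authors' lists hold an interval, a summit offset and a signal per peak, a value of their peak caller used here only for ranks and description inside each list. The thresholded list and 1 unthresholded list came from pooled replicates, and 1 list came from each replicate, per the labels. No peak caller, aligner, IDR threshold or depth is given in the sources used here. The thresholded list held the 6127 strongest pooled peaks, the lowest signal being 236. No replicate lists shared an identical peak, and no peak lay beyond a reference chromosome.

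Summits were placed on Release 6 with Ensembl annotation release 115, without transposable elements, as promoter, else coding exon, else another exon, else intron, else intergenic. Coordinates are 1-based. Sequence came from RefSeq. The dm3 list was used for a count. Shares carry exact binomial 95% intervals, and differences Newcombe intervals at 99.5% (Wald intervals where other sites were weighted to signal classes). A replicate's own list was its 6127 strongest peaks, and a peak matched within 200 bp. Whether a site was isolated in a replicate list was read from that list's nearest site, up to 500 bp away. Python 3.11.15, numpy 2.4.6, pandas 2.3.3, scipy 1.17.1 and matplotlib 3.10.9 were used, and the functions were tested on simulated data.

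The gene of a site holds its summit (the shortest if several), else has the nearest start. Named were the 15 strongest sites, the 5 with the largest distance, the 5 on each side of 20 kb, the 5 whose replicate ranks differ most (a missing peak counted as past the last rank), genes with 3 isolated sites, up to 4 members per gene list and 8 fixed loci. The listed symbols h and zw5 were looked up as hry and dwg. Members, lists and tests were chosen with earlier results of these data known. Alternatives changed the isolation and merging distances, the peak set, the comparison sites, the windows and the replicates.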

Additional observations from a re-analysis of the deposited data

How the results depend on the processing

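Over 160 alternatives of the 10 differences, 144 kept direction and call. Of the 96 that bear on the 6 differences that passed, 90 kept the call, 6 lost it and 0 reversed. The 6 losses fell with isolation at 50 kb (exact consensus 5.20 points, long genes 5.49), among the 3063 strongest peaks (intergenic 4.35, exact consensus 3.73, long genes 3.52) and with genes of over 20 kb (3.33). The promoter difference came to pass with isolation at 10 kb (-4.41) and 50 kb (-15.9), in the own lists of replicates 1 (-10.0) and 2 (-8.66) and with a window of 2000 bp upstream and 500 bp downstream (-9.46). Leaving out each replicate gave -6.53 to -5.07 points for promoters, passing without replicate 1, and -1.80 to 0.935 for introns. The intron difference reversed in the own lists of replicates 1 (0.832) and 2 (2.27), without replicate 3 and with the wider promoter window (0.785), and passed in none of these. The causes were not tested. The number of isolated sites was 1422 with isolation at 10 kb, 100 at 50 kb, 748 among the 3063 strongest peaks and 643 to 676 without a replicate, and 588 of 4805 sites in dm3. The share with a weak neighbour was 82.6% within 10 kb and 82.5% with the stronger 11936 of 23873 weak peaks. Sets without a replicate still come from a list made with all 3. No paired analysis was possible because the design has 1 group. The depth is unknown, so what it limits could not be given.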
